A study of Mus musculus with 20 samples.

Results

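The p53 pathway and its target genes were followed here as 31 named mouse genes, out of 28076 genes listed in the tables of the study. The 31 were chosen by name from a list of the pathway, with earlier results of these data known. They comprise Trp53 and 3 of its regulators, 7 genes of growth arrest and signalling, 12 genes of apoptosis and autophagy, 3 genes of metabolism and stress defence, and 5 genes of DNA repair and nucleotide supply. All 31 have rows in the tables of tumors and 29 in those of cell lines, where the apoptosis genes Pmaip1 and Perp have none. The study measured RNA-seq read counts in 20 libraries of MB49, a mouse bladder cancer cell line, in 4 groups of 5. The cultured groups are MB49 cells labelled Y negative (libraries BN2, BN3, BN6, BN9 and BN10) and MB49 cells labelled Y positive (MB8, MB11, MB17, MB19 and MB34), kept in serum-containing medium with no drug or damaging agent named. The tumor groups are Y-negative tumors (MN11, MN12, MN13, MN14 and MN15) and Y-positive tumors (MP6, MP7, MP8, MP9 and MP10), grown under the skin of wild-type male C57BL/6 mice of unstated age, whose own cells in both kinds of tumor carry a Y chromosome. Nothing in the labels tells whether the 5 libraries of a group are separate clones, cultures or animals, and the p-values below therefore reflect only how these libraries vary, which may be technical. Values per library are listed below in the order in which the libraries are named here.

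The protein p53, encoded by Trp53, is a transcription factor that is held at a low level by the ubiquitin ligase Mdm2 and its partner Mdm4 and is stabilised by DNA damage and other stress. Active p53 switches on Cdkn1a, whose product p21 stops the cell cycle, together with genes that trigger apoptosis, repair DNA and limit metabolic stress, and it switches on Mdm2 itself, which closes a feedback loop. Cell cycle genes fall indirectly, because p21 keeps the DREAM repressor complex on their promoters. The pathway is often inactivated in bladder cancer. Most of its control acts on the p53 protein, which read counts do not measure.

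Library totals ran from 14557118 to 21180885 reads, and levels are given as CPM, the reads of a gene scaled to the total of its library. Changes are log2 fold changes ± SE from edgeR's quasi-likelihood test with 5 libraries per group, and a gene was called at an adjusted p (Benjamini-Hochberg over all genes tested) under 0.05. The epithelial keratins Krt8 and Krt18 were at 344 CPM or more in every cultured library. The urothelial and epithelial markers Krt5, Krt7, Cdh1 and Epcam were at 1.60 CPM or less in every culture, and Upk1b and Upk3a had no row there. Krt19 and Gata3 of the same list have rows in the cultures, and their levels are not given here. These values therefore do not settle how many urothelial markers the cultures carried. The Y-linked gene Kdm5d had 0 reads in the 5 Y-negative cultures and 3.25 ± 0.815 CPM (SD, n = 5) in the Y-negative tumors, against 20.5 ± 7.49 CPM in the Y-positive tumors. Summed markers of macrophages were at 33.3 to 180 CPM in the cultures, where 3 of the 6 have rows, and at 1096 to 2545 CPM in the tumors, and summed fibroblast markers at 12.8 to 48.4 CPM in the cultures, where 3 of the 5 have rows, against 542 to 1209 CPM. The 5 Y-negative tumors also fell into sets, MN11, MN13 and MN14 against MN12 and MN15, by how their reads depended on gene length, and calls of members that changed without 1 of these sets are given with that value. Tumor, host cells and the separate table of each kind of sample go together with the difference between tumors and cultures and cannot be told apart from it, and in bulk RNA fewer cells of a type and less RNA per cell cannot be told apart either.

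The DNA element bound by p53 is a pair of half-sites of 10 bases, which may be separated by a spacer. RefSeq promoter windows (build GRCm38.p6, 250 bases before to 50 after a start site) were at hand for 23 of the 31 genes and were searched for the p53 half-site by name, on both strands since the pattern is its own reverse complement. A perfect half-site was in a window of 11 of these 23 genes (47.8%), against 2582 of 27025 genes (9.55%). A full element, taken as 2 half-sites up to 13 bases apart with at most 2 mismatches in all, was in a window of 5 of the 23 (21.7%), against 4.71% of all genes. The elements are shown because these genes include Cdkn1a, the best known p53 target, and both Gadd45a and Sesn1, which differed between tumors and cultures in opposite directions. The half-sites are in capitals and the spacer in lower case, each on the strand of its gene.
Cdkn1a, chr17:29090906-29090937: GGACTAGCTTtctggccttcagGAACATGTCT
Ccng1, chr11:40755462-40755481: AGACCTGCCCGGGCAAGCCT
Bax, chr7:45467090-45467114: TGACAAGCATatcccAGGCAAGCTT
Gadd45a, chr6:67037438-67037468: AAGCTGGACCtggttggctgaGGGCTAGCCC
Sesn1, chr10:41887253-41887275: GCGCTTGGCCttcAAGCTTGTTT
The Cdkn1a element lies 73 to 42 bases before the start site and matches both half-sites with 0 mismatches, and the Ccng1 element, 195 to 176 bases before its start site, holds 1 mismatch and no spacer. The elements of Bax, Gadd45a and Sesn1 hold 2 mismatches each, and the Sesn1 window belongs to a start site inside the gene as the tables bound it. A match describes the letters of a window and does not show that p53 binds there, and elements outside these windows, for example in introns, were not searched.

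The largest differences of the pathway were between tumors and cultures. Of the 29 genes tested, 22 were called lower in the Y-negative tumors than in the Y-negative cultures and 23 lower in the Y-positive tumors than in the Y-positive cultures, and 22 were lower in both. Among all 13740 genes tested, 27.9% were called lower in the Y-negative tumors, 30.1% in the Y-positive tumors and 22.1% in both. Calls in either direction were made for 56% and 61.8% of all genes, so a call as such is common here, while the direction was lopsided in the p53 genes. Their median log2 difference, tumor minus culture, was -1.59 in the Y-negative and -1.75 in the Y-positive libraries, against 0.02 for all genes in each comparison. In 20 of the 29 genes every one of the 10 tumor libraries was lower than every one of the 10 cultures, against 7.85% of all genes. In 1 gene, Sesn1, every tumor library was higher, and the share of all genes with this pattern is not given here. Called higher in the Y-negative and Y-positive tumors were 1 and 3 of the 29, against 28.1% and 31.7% of all genes.

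Trp53 itself (ENSMUSG00000059552, mm10 chromosome 11, 69580359 to 69591873, plus strand) was not called between tumors and cultures in either genotype. Its level was 136, 166, 96.5, 102 and 119 CPM in the Y-negative cultures, 129.9, 128, 115, 107 and 132 CPM in the Y-positive cultures, 136, 101, 158, 142 and 97.7 CPM in the Y-negative tumors and 144, 176, 120.2, 101 and 121 CPM in the Y-positive tumors. The 4 groups overlapped throughout, and the log2 difference of tumors from cultures was -0.14 ± 0.16 in the Y-negative (adjusted p = 0.482) and -0.05 ± 0.16 in the Y-positive libraries (adjusted p = 0.806, edgeR). Mdm2 (ENSMUSG00000020184, mm10 chromosome 10, 117688875 to 117710758, minus strand), the ubiquitin ligase that degrades p53 and is itself a p53 target, stood at 1000.2, 1032, 731, 849 and 756 CPM in the Y-negative cultures and 1202, 1080.2, 1283, 715 and 1552 CPM in the Y-positive cultures. In the tumors it stood at 173, 186, 149, 172 and 157 CPM (Y-negative) and 139.6, 125, 171, 164 and 178 CPM (Y-positive), so every tumor library was far below every culture. The level in cultures was 5.83 times that in tumors for the Y-negative libraries (log2 -2.54 ± 0.19, edgeR adjusted p = 5.62e-10) and 8.402 times for the Y-positive ones (log2 -3.07 ± 0.20, adjusted p = 3.06e-11). Mdm4, which binds and inhibits p53, was also called lower in the tumors, with log2 differences of -0.91 ± 0.15 and -1.75 ± 0.15, as was Ppm1d, the phosphatase Wip1 that switches p53 signalling off, with -0.77 ± 0.20 and -1.18 ± 0.20 in the Y-negative and Y-positive libraries.

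**Figure D1:**
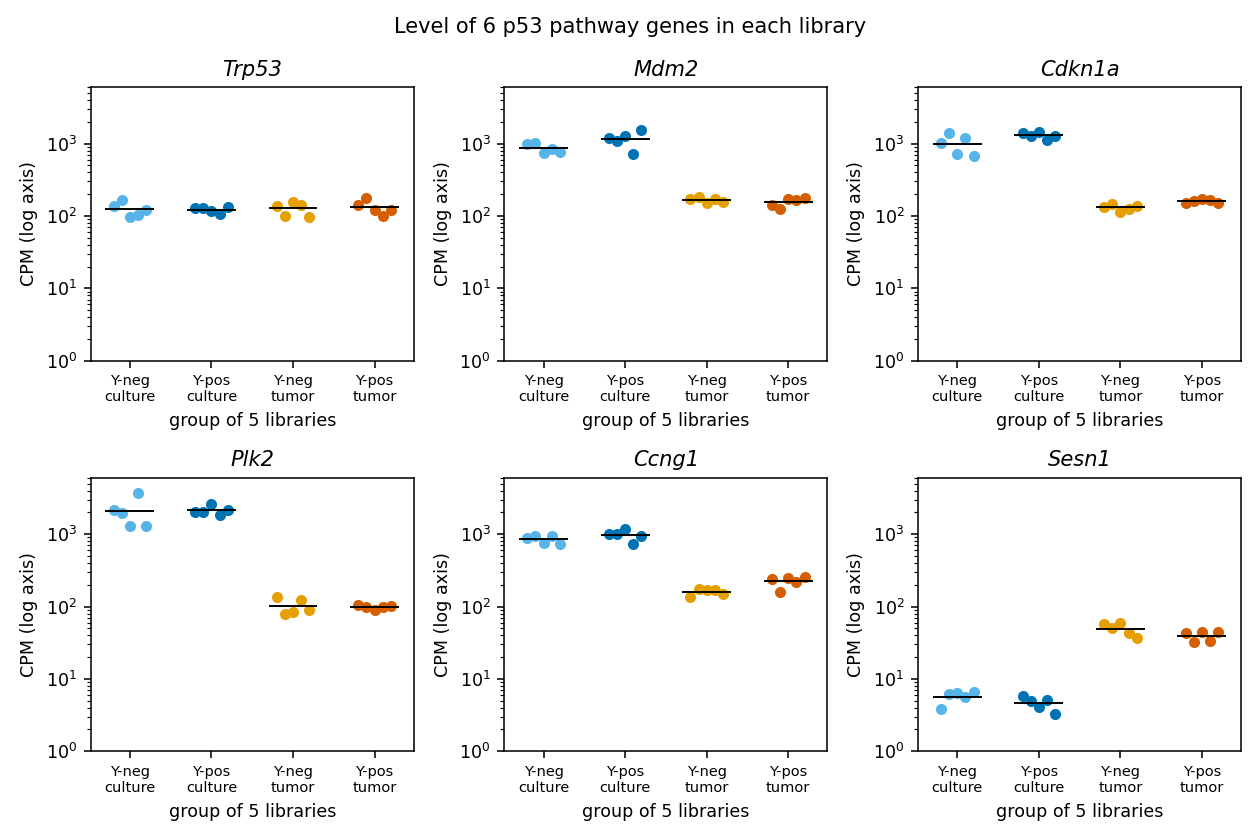
Level of Trp53, Mdm2, Cdkn1a, Plk2, Ccng1 and Sesn1 in each library, in CPM on a log axis, with 1 point per library, 4 groups of 5 libraries and a line at each group mean. Trp53 is level across the groups, Mdm2, Cdkn1a, Plk2 and Ccng1 are lower in every tumor than in every culture, and Sesn1 is higher in every tumor.

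Among the genes of growth arrest and signalling, 6 of 7 were called lower in the tumors of both genotypes. Cdkn1a (ENSMUSG00000023067, mm10 chromosome 17, 29090976 to 29100727, plus strand), which encodes the cyclin-dependent kinase inhibitor p21, stood at 1005, 1419.6, 721, 1199 and 663 CPM in the Y-negative and 1396, 1270.3, 1429.8, 1109 and 1272 CPM in the Y-positive cultures. The tumors held 133, 147, 114, 126 and 136 CPM (Y-negative) and 151, 162, 169, 167 and 152 CPM (Y-positive), with no tumor library near the lowest culture. The log2 difference was -3.09 ± 0.20 (adjusted p = 4.03e-11) and -3.17 ± 0.20 (adjusted p = 2.21e-11, edgeR), so the cultures held 8.54 and 9.03 times the level of the tumors. Plk2 (mm10 chromosome 13, 110395046 to 110400844, plus strand), a stress-induced polo-like kinase, had the largest difference of all members. Its level was 2162, 1939.9, 1308, 3677 and 1314 CPM in the Y-negative cultures, where BN9 stood above the others, and 2056, 2044, 2585, 1857 and 2124 CPM in the Y-positive cultures. It was 137, 79.2, 84.0, 122 and 89.8 CPM and 104, 99.98, 89.0, 98.6 and 100.5 CPM in the Y-negative and Y-positive tumors, and the culture level was 23.0 and 24.4 times that of the tumors (log2 -4.52 ± 0.27 and -4.61 ± 0.27, edgeR adjusted p = 9.34e-12 and 7.18e-12). Gadd45a, a stress gene of growth arrest and DNA repair, went from 211 ± 82.3 and 229 ± 38.0 CPM (SD, n = 5) in the Y-negative and Y-positive cultures to 11.7 ± 2.78 and 11.3 ± 6.69 CPM in the tumors, -4.34 ± 0.38 and -4.49 ± 0.38 on the log2 scale. Annotated genes on the opposite strand overlap Cdkn1a and Gadd45a, and reads of such pairs were not separated.

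Ccng1 (mm10 chromosome 11, 40748552 to 40755311, minus strand), which encodes cyclin G1, a partner of a phosphatase that acts on Mdm2, was at 734 to 952 CPM in the Y-negative and 721 to 1178 CPM in the Y-positive cultures. It was at 136 to 176 and 158 to 254 CPM in the tumors, a log2 difference of -2.58 ± 0.17 and -2.28 ± 0.17. Btg2, an anti-proliferative gene, was lower by the same order, with -3.08 ± 0.25 and -2.86 ± 0.25, and Zmat3, an RNA-binding p53 target, differed by -1.80 ± 0.20 and -2.33 ± 0.20. The exception of this set was Phlda3, an inhibitor of Akt signalling, which was low everywhere. It had 178 and 239 reads over the 5 Y-negative and 5 Y-positive cultures and 319 and 507 reads in the tumors, and its difference of 0.78 ± 0.40 and 0.84 ± 0.39 was not called (edgeR adjusted p = 0.101 and 0.0696). Without BN3 in the Y-negative comparison it was 1.02 (adjusted p = 0.0499), with the slope of reads on gene length of each library as a covariate 0.90 (adjusted p = 0.0284), and without MB17 or MP6 in the Y-positive one 1.12 and 0.97 (adjusted p = 0.0244 and 0.0464).

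The apoptosis and autophagy genes were lower in the tumors too, with 8 of 10 tested called lower in the Y-negative and 9 of 10 in the Y-positive comparison. Fas, the death receptor on the cell surface, was at 156, 86.3, 56.3, 163 and 60.5 CPM in the Y-negative and 156, 134, 189, 109.7 and 173 CPM in the Y-positive cultures. It was at 11.2, 16.0, 5.81, 8.23 and 14.0 and 7.71, 6.29, 13.2, 13.9 and 11.2 CPM in the Y-negative and Y-positive tumors. The groups lay far apart, with a log2 difference of -3.39 ± 0.35 and -4.02 ± 0.36 (edgeR adjusted p = 6.32e-08 and 4.70e-09). Bbc3, which encodes the BH3-only killer protein Puma, stood at 181, 241, 107, 282 and 87.8 CPM and 237, 212, 275, 183 and 228 CPM in the cultures. It stood at 21.9, 24.9, 16.9, 22.2 and 18.0 CPM and 19.9, 31.6, 21.1, 17.5 and 14.9 CPM in the tumors, a difference of -3.28 ± 0.29 and -3.60 ± 0.29 (edgeR adjusted p = 4.48e-09 and 9.06e-10). Trp53inp1, which promotes p53-dependent death and autophagy, differed by -3.02 ± 0.23 and -3.35 ± 0.24.

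Smaller differences were measured for the remaining death genes. Bax, the pore-forming protein of the mitochondrial pathway, was 252 ± 52.1 and 298 ± 59.9 CPM in the cultures and 92.5 ± 28.8 and 126 ± 22.9 CPM in the tumors, a log2 difference of -1.59 ± 0.23 and -1.39 ± 0.23. A predicted gene overlaps Bax on the same strand, so its reads may be shared. An annotated gene on the same strand overlaps Fas and another on the opposite strand overlaps Apaf1, and such reads were not separated. The death receptor gene Tnfrsf10b (-1.55 and -1.54), the nuclease gene Aen (-1.87 and -1.84), Ei24, which codes for a membrane protein of the endoplasmic reticulum (-1.73 and -1.43), and Pidd1, a scaffold of caspase activation (-0.99 and -1.37), were all called lower in both genotypes. Apaf1, the core of the apoptosome, was called lower in the Y-positive comparison (-1.13 ± 0.19) and was at -0.42 ± 0.19 in the Y-negative one (adjusted p = 0.0646, edgeR). The difference between the 2 comparisons was 0.71 ± 0.27 (adjusted p = 0.112, edgeR). Dram1, a lysosomal regulator of autophagy, was called higher in the Y-positive tumors (0.58 ± 0.23, edgeR adjusted p = 0.0334) and was at -0.01 ± 0.23 in the Y-negative ones. The Dram1 call was lost without MB8, MB11, MB34, MP9 or MP10 alone (0.48 to 0.56) and with the slope of reads on gene length of each library as a covariate (0.45). Apaf1 passed in the Y-negative comparison without BN6, BN10, MN13, MN14 or MP9 alone (-0.55 to -0.42, MP9 entering through the shared estimate of the spread), and it was at -0.83 without MN11, MN13 and MN14 together (adjusted p = 0.0107, edgeR) and at -0.51 with the slope covariate (adjusted p = 0.00985).

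Pmaip1, which encodes the BH3-only protein Noxa, and Perp, a membrane protein of cell junctions and apoptosis, could be read in the tumors alone. Pmaip1 was at 4.04, 3.02, 4.67, 2.10 and 3.12 CPM in the Y-negative and 3.47, 4.69, 4.63, 4.28 and 5.18 CPM in the Y-positive tumors, and the groups overlapped. Perp had 33 reads over the 5 Y-negative and 25 over the 5 Y-positive tumors and was under the count minimum of the test. MP7 and MP9 had 0 reads of Perp, which allows up to 0.178 and 0.171 CPM by counting error alone (3 reads).

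**Figure D2:**
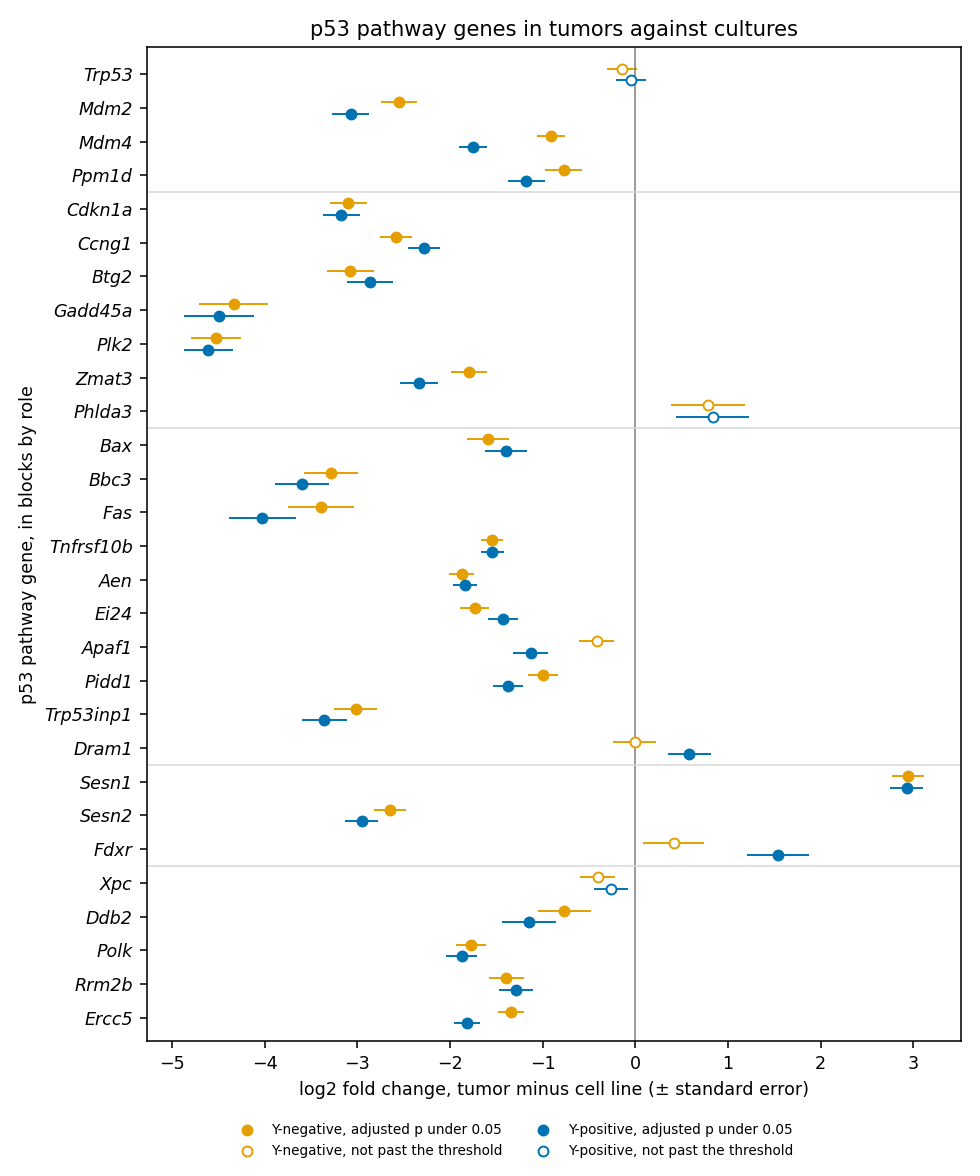
Log2 fold change of tumors against cell lines for the 29 genes with rows in both kinds of table, with points for Y-negative and Y-positive libraries, bars of ± 1 SE, filled points at an adjusted p under 0.05, and blocks by role. Most points lie between -1 and -5, Trp53 lies at 0 within its error, and Sesn1 lies near 3.

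Metabolic and repair genes did not all move alike. Sesn1 (ENSMUSG00000038332, mm10 chromosome 10, 41809935 to 41908424, plus strand), one of the sestrins that restrain the growth kinase mTORC1, was at 3.86, 6.28, 6.31, 5.57 and 6.51 CPM in the Y-negative and 5.76, 4.94, 4.15, 5.08 and 3.26 CPM in the Y-positive cultures. It was at 57.0, 50.5, 58.8, 43.5 and 36.2 CPM in the Y-negative and 43.6, 32.6, 44.0, 33.1 and 44.0 CPM in the Y-positive tumors. Every tumor library was above every culture, by 2.94 ± 0.17 and 2.93 ± 0.18 on the log2 scale (edgeR adjusted p = 1.01e-11 and 1.23e-11), or 7.69 and 7.62 times. Its paralog Sesn2 went the other way, from 203 ± 50.1 and 189.7 ± 25.0 CPM in the cultures to 36.3 ± 5.44 and 27.4 ± 4.64 CPM in the tumors (log2 -2.65 ± 0.17 and -2.95 ± 0.17, edgeR adjusted p = 4.28e-11 and 8.85e-12). The Sesn1 window shown above holds a full p53 element, as do those of Cdkn1a, Ccng1, Bax and Gadd45a, so the presence of an element in these windows did not go with 1 direction. A gene annotated on the same strand overlaps Sesn1 and another overlaps Sesn2, so their reads may be shared. Which cells of the tumors carried the Sesn1 reads was not tested.

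Fdxr, the mitochondrial ferredoxin reductase, was called higher in the Y-positive tumors (1.54 ± 0.34, edgeR adjusted p = 4.48e-04) and was at 0.41 ± 0.33 in the Y-negative ones (adjusted p = 0.293). In the Y-negative cultures Fdxr read 2.59, 4.98, 8.19, 6.20 and 19.7 CPM, so BN10 alone reached the level of tumors. Without BN10 the Y-negative difference was 0.95 with an adjusted p of 0.00285. Of the repair genes, Polk, a translesion polymerase (-1.77 and -1.87), Rrm2b, the p53-inducible subunit of ribonucleotide reductase (-1.39 and -1.29), Ercc5, the nuclease XPG of excision repair (-1.34 and -1.81), and Ddb2, a sensor of ultraviolet damage (-0.77 and -1.15), were called lower in both genotypes. The Ddb2 call in the Y-negative comparison was lost without BN2, BN3, BN9 or MN15 alone (-0.73 to -0.61) and without MN11, MN13 and MN14 together (-0.71, edgeR adjusted p = 0.178). Ddb2 overlaps Acp2, and Polk and Rrm2b each overlap a predicted gene, and reads of such pairs were not separated. Xpc, the damage sensor of global excision repair, was not called in either (-0.41 ± 0.18 and -0.26 ± 0.18, edgeR adjusted p = 0.0647 and 0.222), though it passed in the Y-negative comparison without BN9, MN11 or MN14 alone (-0.50 to -0.49) and was at -0.79 without MN11, MN13 and MN14 together (adjusted p = 0.0160). With the slope of reads on gene length as a covariate it was -0.50 (adjusted p = 0.00395).

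Further lists of p53 biology, also chosen with earlier results of these data known, were read beside the members. Of 20 other p53 targets, 15 were called lower and 4 higher in the Y-negative tumors than in their cultures, and 14 lower and 4 higher in the Y-positive ones, with medians of -0.97 and -1.06. Over all genes 27.9% were called lower and 28.1% higher in the Y-negative comparison, and 30.1% lower and 31.7% higher in the Y-positive one. Gdf15, a secreted stress cytokine, differed by -4.55 ± 0.30 and -4.76 ± 0.31, and called lower as well were the death receptor Eda2r (-2.82 and -3.00), the long noncoding RNA Pvt1 (-2.64 and -3.29) and Psrc1 (-2.26 and -2.33). Of 20 cell cycle genes that p21 and DREAM repress, 17 were called higher in the Y-negative and 19 in the Y-positive tumors and none (0) lower, with medians of 0.86 and 1.44, while 28.1% and 31.7% of all genes were called higher. Without MN11, MN13 and MN14 the Y-negative count was 13. The mitotic cyclin Ccnb2 differed by 2.01 ± 0.21 and 3.25 ± 0.22 and the S phase cyclin Ccna2 by 1.73 ± 0.21 and 2.21 ± 0.21. Of the regulators of p53, 18 were tested and moved both ways, 6 up and 2 down among the calls in the Y-negative tumors, and 4 up and 4 down in the Y-positive ones. That makes 44.4% called in each, below the 56% and 61.8% of all genes. The Y-negative calls were 10 up and 1 down without MN12 and MN15 and 1 up and 1 down without MN11, MN13 and MN14. With all libraries, the kinase Atm (0.92 ± 0.25) and the acetyltransferase Crebbp (0.97 ± 0.20) were higher in the Y-negative tumors, the kinase Chek1 was higher (1.30 ± 0.23) and the acetyltransferase Ep300 lower (-0.90 ± 0.20) in the Y-positive tumors.

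Per length, the order of the members also differed between cultures and tumors, here on the FPKM scale of the deposited tables. In the cultures Plk2 stood first, with 1306 ± 609 FPKM (SD, n = 5) in the Y-negative and 1339.9 ± 171 FPKM in the Y-positive group, followed by Cdkn1a with 709.6 ± 226 and 918 ± 89.8 FPKM and Mdm2 with 518 ± 81.7 and 691 ± 181 FPKM. These neighbours overlapped in range in the Y-negative cultures, whereas in the Y-positive cultures every Plk2 value was above every Cdkn1a value. In the tumors Bax stood first, with 143 ± 44.6 and 196 ± 35.5 FPKM, and Trp53, at 68.0 ± 15.3 and 67.3 ± 6.02 FPKM in the cultures, had 69.8 ± 14.5 and 72.9 ± 15.9 FPKM. Trp53 was thus near Plk2 (64.5 ± 16.2 and 61.8 ± 3.48 FPKM) in the tumors and far below it in the cultures. The order depends on the length used. The length behind the deposited FPKM was shorter than the gene length in the same tables for 27 of the 31 members, for example 1819 against 4045 bases for Trp53 and 2159 against 14798 for Mdm4, and for the other 4 it was equal or longer by at most 2 bases.

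Between genotypes in culture no p53 gene was called. Of the 29 tested, 0 passed at an adjusted p under 0.05 in edgeR, DESeq2 or limma-voom, and 2 had an unadjusted p under 0.05 in edgeR, against 0.0321% of all 12446 genes called and 16.9% with an unadjusted p under 0.05. The direction leaned to lower values in the Y-negative cultures, with 22 of 29 genes below 0 and a median of -0.19, while 48.0% of all genes were below 0 with a median of 0.02. Zmat3 (-0.50 ± 0.18, edgeR adjusted p = 0.197) and Mdm2 (-0.48 ± 0.21, adjusted p = 0.270) were the pair with an unadjusted p under 0.05. Cdkn1a was at -0.42 ± 0.21 and Trp53 at -0.04 ± 0.15. No member (0 of 29) separated the 5 Y-negative from the 5 Y-positive cultures, against 3.82% of all genes. The count of genes below 0 was 20 to 24 when each library was left out in turn, with a median of -0.29 to -0.12.

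Cultures of the same genotype also differed from one another across the pathway. For each library the deviation of each member from its mean over the 10 cultures was taken on the log2 scale. The median deviation was -0.39 in BN6 and -0.36 in BN10, where 4 and 5 of 29 members were above their mean, and 0.31 in MB17, where 26 of 29 were above. The other 7 cultures lay between -0.07 and 0.19. Over all genes the same median lay between -0.0035 and 0.0225 in every culture. The TMM scaling of these values sets most genes level between libraries, so that median is near 0 by design. It cannot tell whether the shift was particular to the pathway. In the 10 tumors the median deviation of the members lay between -0.10 and 0.07.

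Genotype differences in the tumors were split in direction, and all measured ones were under 1 on the log2 scale. Of 30 genes tested, 1 was called, against 2.45% of all 14783 genes, and 6 had an unadjusted p under 0.05, against 22.7% of all genes. The members were higher in 15 and lower in 15, with a median of 0.00, against -0.01 for all genes. The called gene was Mdm4 (ENSMUSG00000054387, mm10 chromosome 1, 132959484 to 133030561, minus strand), at 152, 103, 110.4, 126 and 93.0 CPM in the Y-negative and 75.3, 63.4, 62.1, 62.7 and 101 CPM in the Y-positive tumors. The 4 lowest libraries were Y-positive, and MP10 overlapped the Y-negative range. An annotated pseudogene overlaps Mdm4 on the opposite strand, and their reads were not separated. The Mdm4 difference between the genotypes was 0.67 ± 0.16 on the log2 scale with an edgeR adjusted p of 0.0465. The other 5 genes were Ccng1 (-0.49 ± 0.15, adjusted p = 0.0886), Ei24 (-0.34 ± 0.10, 0.0942), Fdxr (-0.43 ± 0.16, 0.137), Sesn2 (0.40 ± 0.15, 0.142) and Cdkn1a (-0.30 ± 0.13, 0.196), and none of them passed in this fit. With the slope of reads on gene length of each library as a covariate, Ei24 passed (-0.35, edgeR adjusted p = 0.0452).

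Cdkn1a and Ei24 were lower in each Y-negative tumor than in each Y-positive one. These 2 of 30 members are near the share over all genes, where 5.45% had groups that do not overlap. Cdkn1a ran from 114 to 147 CPM against 151 to 169 CPM, and Ei24 from 62.4 to 74.6 against 76.7 to 90.2 CPM. An antisense gene overlaps Ei24, and their reads were not separated. Ccng1 ran from 136 to 176 against 158 to 254 CPM, where MP7 was the one Y-positive tumor within the Y-negative range, and without MP7 the Ccng1 difference was -0.60 with an adjusted p of 0.0372 (edgeR). DESeq2 called Mdm4, Ccng1 and Ei24, in a fit that called 1158 of 16046 genes. Trp53 was at -0.08 ± 0.16 and Mdm2 at 0.10 ± 0.14, neither called (edgeR adjusted p = 0.791 and 0.702).

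**Figure D3:**
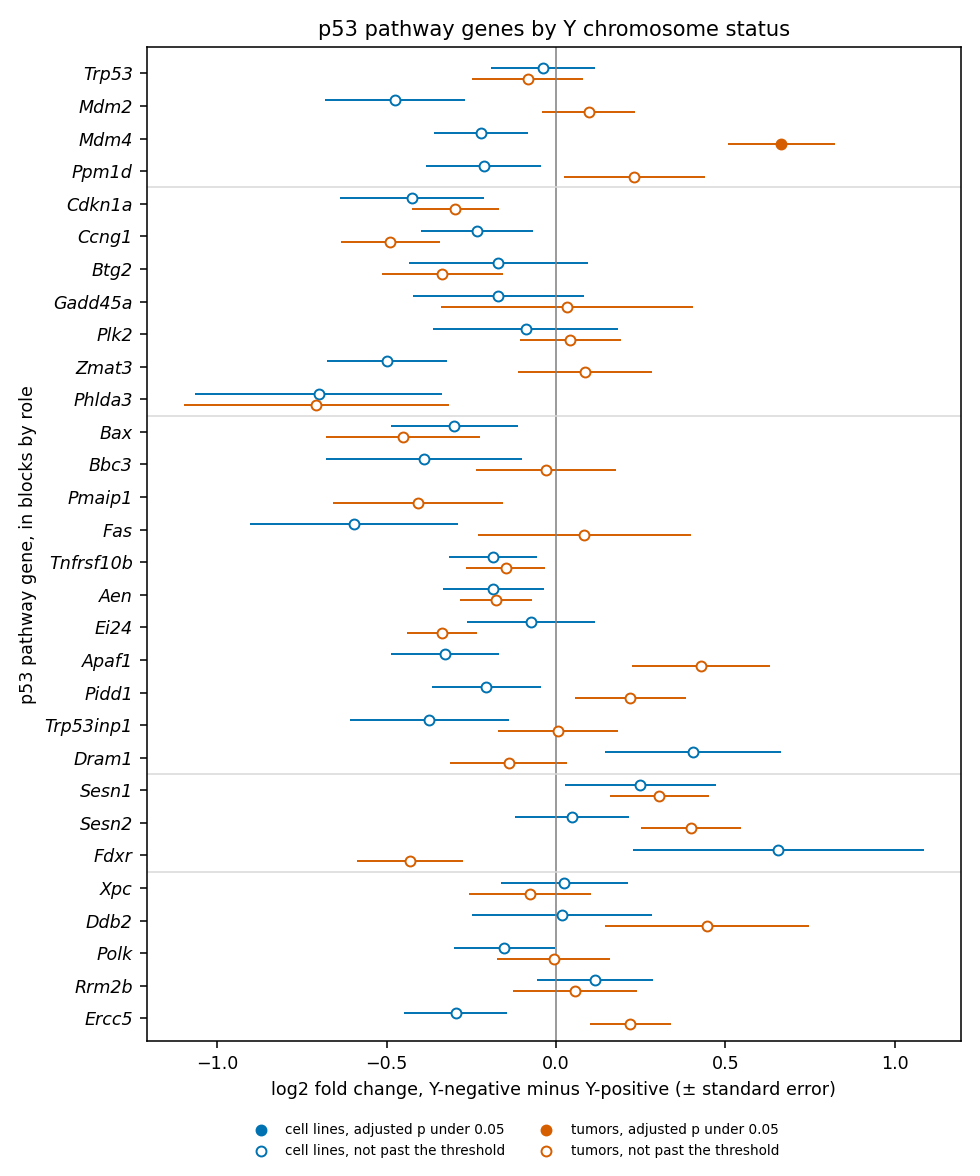
Log2 fold change of Y-negative against Y-positive libraries for each p53 gene, in cell lines (29 genes) and tumors (30 genes), with bars of ± 1 SE and filled points at an adjusted p under 0.05. Mdm4 in tumors, at 0.67, is the one filled point, and most cell line points of the first 3 blocks lie left of 0.

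The tumor libraries also differed in how their reads depended on gene length. The slope of log2 CPM on log2 gene length across genes was 0.66, 0.65 and 0.69 in MN11, MN13 and MN14, 0.38 and 0.39 in MN12 and MN15, and 0.26 to 0.56 in the Y-positive tumors. Mdm4 has the longest gene length of the members in the tables (14798 bases), and its 3 highest tumor libraries were MN11, MN14 and MN13. Across the 30 members the genotype difference in tumors correlated with log2 gene length at r = 0.50, and across all 14783 genes at r = 0.26, where genes share libraries and are not independent replicates. With the length behind the FPKM the value over members was 0.37. With the slope of each library as a covariate, r was -0.07 over the members and -0.02 over all genes. That covariate is built from gene length and takes up this relation largely by design, so the lower r is no separate result. Mdm4 was at 0.53 with an adjusted p of 0.0554 in that fit. Without MN12 and MN15 the Mdm4 difference was 0.75 (adjusted p = 0.0134, edgeR). Cdkn1a (-0.45), Ccng1 (-0.57), Bax (-0.87) and Apaf1 (0.63) were called too, which makes 5 members, in a fit that called 3630 of 15396 genes. Without MN11, MN13 and MN14 the Mdm4 difference was 0.49 (adjusted p = 0.508) and 0 members were called, in a fit that called 21 of 15968 genes. Leaving out MN11, MN13, MN14, MP6, MP7, MP8 or MP9 alone also ended the Mdm4 call, with differences of 0.57 to 0.70 and adjusted p from 0.0611 to 0.137 in edgeR. What sets the slope of a library was not tested.

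Some cell type markers also differed between the genotypes in the tumors, among them those of urothelial and bladder cancer cells, the type of MB49 itself. The 3 skin keratinocyte markers of 5 with rows summed to 19.3 to 28.0 CPM in the Y-negative and 75.6 to 144 CPM in the Y-positive tumors, nearly all of it Krt14, while Krt5 and Krt10 were at 1.21 CPM or less in every tumor. Summed urothelial and bladder cancer markers (9 of 10 with rows) ran from 3526 to 4116 CPM in the Y-negative and 4326 to 5441 CPM in the Y-positive tumors, with no overlap. Of the 6 of them that were tested, 5 were lower in the Y-negative tumors, with a median of -0.86. All 6 had an unadjusted p under 0.05 (edgeR), against 22.7% of all genes. The 1 that was called went the other way, higher in the Y-negative tumors. Of all genes 2.45% were called between the tumors. Fibroblast markers (5 of 5) summed to 542 to 1209 against 742 to 1081 CPM, and 1 of them was called higher and 1 lower, with log2 differences from -2.07 to 1.07. Summed macrophage markers (6 of 6) ran from 1096 to 2321 against 1401 to 2545 CPM, T cell markers (6 of 6) from 22.5 to 42.1 against 26.5 to 60.8 CPM, and skeletal muscle markers (4 of 4) from 4.64 to 508 against 0.275 to 1809.6 CPM. Their part in the genotype differences of the p53 genes was not tested.

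**Figure D4:**
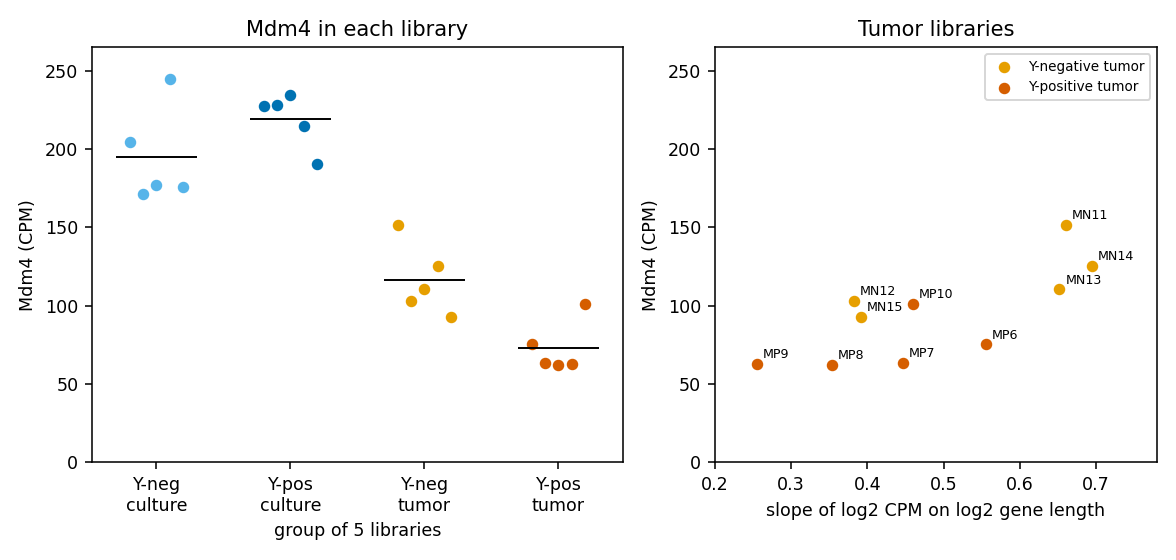
Left, Mdm4 in CPM in each library of the 4 groups, with a line at each group mean. Right, Mdm4 in CPM in each tumor library against the slope of log2 CPM on log2 gene length of that library. MN11, MN13 and MN14 have both the highest slopes, 0.65 to 0.69, and the highest Mdm4 of the tumors.

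The question whether Y chromosome status acted differently on the pathway in tumors and in culture was put to the interaction of the 2 factors. Of 29 members, 1 was called, against 4.56% of 13740 genes, with a median of 0.08 against -0.07 for all genes. Mdm4 was the gene called. It was higher in the Y-negative tumors, and in culture it stood at 205, 171, 177, 245 and 176 CPM in the Y-negative against 228, 228, 235, 215 and 190.2 CPM in the Y-positive cultures (-0.22 ± 0.14, not called). The difference between the changes was 0.84 ± 0.21 (edgeR adjusted p = 0.0286), and 0.71 with an adjusted p of 0.0492 when the length slope was a covariate. It was not called without BN6, BN10, MB17, MN11, MN14, MP8 or MP9, each left out alone (0.73 to 0.81, adjusted p from 0.0514 to 0.0723). Apaf1 (0.71 ± 0.27, adjusted p = 0.112), Ercc5 (0.47 ± 0.19, 0.143) and Fdxr (-1.13 ± 0.47, 0.153) had an unadjusted p under 0.05 and were not called. Without the culture BN10 the Fdxr interaction was -0.59 (edgeR adjusted p = 0.316). Without MN12 and MN15 Apaf1 passed (0.92, adjusted p = 0.0260), and without MN11, MN13 and MN14 the Mdm4 call was lost (0.67, adjusted p = 0.246).

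The same lists read between genotypes gave few calls. In culture 0 of 20 other p53 targets, 0 of 20 cell cycle genes and 0 of 17 regulators were called in edgeR, where 4, 5 and 3 of them had an unadjusted p under 0.05. Over all genes 0.0321% were called and 16.9% had an unadjusted p under 0.05. The cell cycle genes were higher in the Y-negative cultures in 17 of 20, with a median of 0.31, and the smallest adjusted p was that of Mcm7 (0.74 ± 0.15, edgeR adjusted p = 0.0910), a subunit of the replicative helicase. In tumors 0 of 20, 0 of 20 and 0 of 19 were called, against 2.45% of all genes. With an unadjusted p under 0.05 there were 3, 6 and 9, against 22.7% of all genes, and the regulators had a median of 0.32. Crebbp (0.90 ± 0.22), Ep300 (0.94 ± 0.23) and the kinase Hipk2 (1.23 ± 0.31) had adjusted p of 0.0523, 0.0526 and 0.0531 in edgeR. Without MN12 and MN15 they were at 1.14 to 1.52 and all called (edgeR adjusted p = 0.00538, 0.00468 and 0.0071). In DESeq2, which called 1158 of 16046 genes, they were called with all libraries. Without MN11, MN13 and MN14 they were at 0.40, 0.37 and 0.60 and not called (edgeR adjusted p = 0.677, 0.686 and 0.644). For the interaction, that is the genotype difference in tumors minus that in cultures, 4.56% of 13740 genes were called. The lists held 2 calls among 18 regulators, 3 among 20 cell cycle genes and 0 among 20 other p53 targets. Ep300 (1.19 ± 0.28) and Crebbp (1.17 ± 0.29) were called above 0. The cell cycle genes Mcm7 (-1.03 ± 0.19), Birc5 (-1.46 ± 0.31), the anti-apoptotic protein survivin, and Ccnb2 (-1.24 ± 0.28) were called below 0. Without MN11, MN13 and MN14 none of the 5 was called in edgeR (0.62, 0.67, -1.11, -1.36 and -1.18 in the same order, adjusted p = 0.337, 0.347, 0.0625, 0.166 and 0.203), in a fit that called 6 of all genes against 627 with all libraries. Without MN12 and MN15 all 5 were called, in a fit that called 1962 of all genes. The Crebbp call was also lost with the slope covariate (0.79) and without MB11, MN11, MN13, MN14, MP8 or MP9 alone, and the Ep300 call without MN11 or MN14 alone.

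Members were also related to each other across libraries, in 6 pairs over the 10 cultures and over the 10 tumors, each tested by permutation with 100000 resamples and Benjamini-Hochberg adjustment over the 12 relations. In the cultures Cdkn1a went up and down with Ccng1 (r = 0.84, rho = 0.85, permutation p = 6.00e-04 and 0.00295, adjusted p = 0.0072 and 0.0122, n = 10) and with Phlda3 (r = 0.75, rho = 0.89, permutation p = 0.011 and 0.00105, adjusted p = 0.0305 and 0.0122). The relation of Cdkn1a with Mdm2 was r = 0.74 and rho = 0.85 (permutation p = 0.0127 and 0.00306, adjusted p = 0.0305 and 0.0122). Within the 5 Y-negative and the 5 Y-positive cultures these values of r were 0.97 and 0.96 for Ccng1, 0.70 and 0.99 for Phlda3, and 0.85 and 0.78 for Mdm2. BN6 and BN10 were the cultures farthest from the median of Cdkn1a, and without them r was 0.74 for Ccng1 (permutation p = 0.0408), 0.95 for Phlda3 (permutation p = 0.00111) and 0.60 for Mdm2 (permutation p = 0.106), so the last relation did not pass without those libraries. Trp53 with Mdm2 (r = 0.63, rho = 0.71, adjusted p = 0.0796 and 0.0529), Trp53 with Cdkn1a (r = 0.57, rho = 0.64, adjusted p = 0.109 and 0.082) and Cdkn1a with the proliferation marker Mki67 (r = -0.67, rho = -0.44, adjusted p = 0.0669 and 0.247) did not pass by permutation. With the trend on the length slope removed from both genes, r was 0.82 for Cdkn1a with Ccng1, 0.70 with Phlda3 and 0.69 with Mdm2 (permutation p = 0.0036, 0.0209 and 0.0308). It was 0.47 for Trp53 with Mdm2, 0.46 for Trp53 with Cdkn1a and -0.59 for Cdkn1a with Mki67 (permutation p = 0.171, 0.188 and 0.0751).

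In the tumors the sign of the Trp53 and Mdm2 relation was opposite to that in the cultures, where the relation did not pass. Libraries with more Trp53 held less Mdm2, with r = -0.84 and rho = -0.76 (permutation p = 0.00215 and 0.015, adjusted p = 0.0129 and 0.036, n = 10). The value of r was -0.74 within the Y-negative and -0.89 within the Y-positive tumors, -0.86 without MN15 and MP7 (permutation p = 0.00743), and -0.80 with the trend on the length slope removed from both genes (permutation p = 0.00422). Whether the relation differed between cultures and tumors was not tested. Cdkn1a with Mki67 was r = -0.81 and rho = -0.83 (permutation p = 0.00464 and 0.00471, adjusted p = 0.0186 and 0.0141). Within the Y-negative and Y-positive tumors it was -0.85 and -0.41. Without MN13 and MN14 it was -0.70 and did not pass (permutation p = 0.0547), and with the length trend removed it was -0.16 (permutation p = 0.663). The other 4 pairs did not pass in the tumors, with r from -0.22 to 0.61 and adjusted p from 0.0926 to 0.54 by permutation. Of these, Trp53 with Cdkn1a was r = -0.22, -0.76 without MN15 and MP7 (permutation p = 0.0303), -0.94 within the Y-negative and -0.13 within the Y-positive tumors, and 0.54 with the length trend removed.

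**Figure D5:**
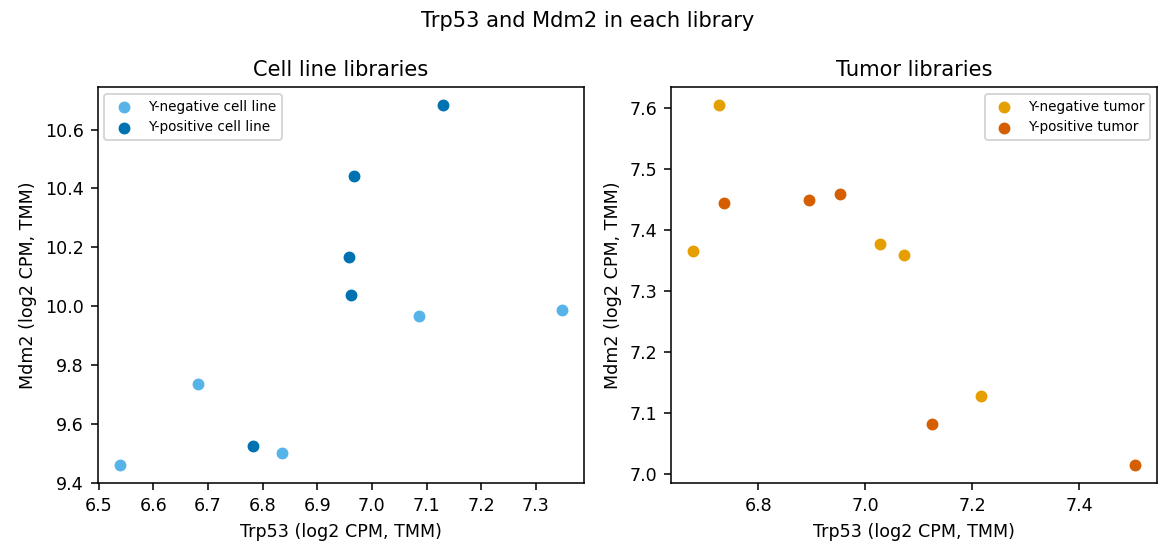
Mdm2 against Trp53, both in log2 CPM with TMM normalization, in the 10 cell line libraries (left) and the 10 tumor libraries (right), with 1 point per library. Points climb from left to right in the cultures (r = 0.63, which did not pass) and descend in the tumors (r = -0.84).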

How the data were processed

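Read counts per gene from 20 MB49 RNA-seq libraries were used, in 4 groups of 5 assigned by the labels. The submitters' processing notes list STAR 2.7.0d and RSEM 1.3.1 among others, and mm10, without giving their roles. Annotation and strand setting were not found in the labels. As deposited, the counts are whole numbers, named as read counts in the file headers, and they were tested unchanged. The FPKM that the authors deposited beside them only ordered the members per length. Depth was 14557118 to 21180885 reads per library.

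The test was edgeR 4.0.16 in R 4.3.3, namely TMM scaling, filterByExpr (minimum count 10 and minimum total 15), the F-test on quasi-likelihood dispersions, and p adjusted by Benjamini-Hochberg over every tested gene with a threshold of 0.05. Genotypes were compared within cell lines and within tumors in separate fits. A joint fit of the 4 groups, restricted to the 14650 genes present in all tables, gave tumors against cell lines and the interaction. Levels are plain CPM, and correlations used TMM log2 CPM (prior count 2). A library's length slope was fitted across genes averaging 1 CPM or more. Alternatives were DESeq2 1.42.0, limma-voom (limma 3.58.1), DESeq2-type size factors in edgeR, no count filter, the slope covariate and leaving out libraries. Scripts were tested on simulated data. The 31 members, the other lists and the tests were chosen with earlier results of these data known. All members are accounted for, and of each other list up to 4 genes with the smallest adjusted p per comparison could be named. Promoter windows came from RefSeq (GRCm38.p6).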

Additional observations from a re-analysis of the deposited data

Results flagged for a closer look

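Phlda3 stood apart in 1 library: MP9, a Y-positive tumor, held 10.4 CPM, while the other 4 Y-positive tumors held 3.69 to 5.28 CPM. Among the 120 sets of 5 libraries examined for a sample far from the others this was the 1 that exceeded the limit, and chance alone would give about 1 in 20.

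Mdm4 differed between tumors and cultures in its genotype difference, by 0.84 on the log2 scale in the model of all 4 groups (edgeR adjusted p = 0.0286 for the interaction). Fitted apart, Y-negative minus Y-positive was 0.67 in tumors and -0.22 in cultures, the latter not called. Mdm4 is the member with the longest gene length in the tables, and the call was lost without MN11, MN13 and MN14 (0.67, adjusted p = 0.246). With the length slope of each library as a covariate it was 0.71 (adjusted p = 0.0492).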

How the results depend on the processing

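The count of p53 genes called between genotypes stayed at 0 in the cell lines under every alternative run. In the tumors, where 1 was called, it was 3 in DESeq2, 5 without MN12 and MN15, 0 without MN11, MN13 and MN14, and 0 to 1 with each library left out in turn. For the interaction, with 1 called, it was 2 without MN12 and MN15, 0 without MN11, MN13 and MN14, and 0 to 1 with each library left out. Against cell lines, 22 to 26 members were called in the Y-negative tumors and 25 to 27 in the Y-positive tumors over the alternatives run. Over all genes, calls ran from 2 to 501 in cell lines, 21 to 3630 in tumors and 6 to 1962 for the interaction. DESeq2 gave the 501 in cell lines and called 1158 of 16046 genes between the tumors.

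Signs turned for values near 0. Between tumors, Ppm1d was at -0.0273 with the length slope as a covariate and -0.0459 without MN11, MN13 and MN14, and without MN12 and MN15 Trp53 was at 0.0536 and Mdm2 at -0.0008. For the interaction, without MN12 and MN15, Trp53 was at 0.0477 and Cdkn1a at -0.0724. In the Y-negative tumors against cell lines Dram1 was at 0.0082 with the slope covariate and 0.14 without MN11, MN13 and MN14, and Trp53 at 0.0012 without MN12 and MN15, and in the Y-positive ones Trp53 was at 0.0493 with the covariate. With each library left out in turn, Trp53 ran from -0.16 to 0.0431 between cell lines, -0.16 to 0.0396 between tumors, -0.21 to 0.0406 for the interaction and -0.18 to 0.0195 in the Y-positive tumors against cell lines. Cdkn1a ran from -0.0836 to 0.24 for the interaction, and Dram1 from -0.21 to 0.13 in the Y-negative tumors against cell lines. With the length trend removed in the tumors, r was 0.54 for Trp53 with Cdkn1a, -0.25 for Cdkn1a with Mdm2 and -0.18 for Cdkn1a with Phlda3.

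Of the other members with a genotype difference within 1 SE of 0, 8 in cell lines changed sign in 19 of 128 comparisons, 10 in tumors in 56 of 180 and 13 for the interaction in 45 of 338. The slope covariate of the 4-group fit, the 2 sets of left-out tumors in that fit, the alternatives for the other p53 lists and the removal of the length trend were chosen after seeing the data. The cause of these changes was not tested. No paired analysis was possible because the groups share no replicate numbers. Perp, with 0 to 13 reads per tumor library, was too shallow to test.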
